A study of Mus musculus with 2 samples.

Results

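The cells described here are 147 cells of a mouse retina library made after sodium iodate, chosen because they carried transcripts of brain and retinal capillary endothelium. A cell was taken when Cldn5, Flt1, Ly6c1, Ptprb, Itm2a and Abcb1a together gave at least 5 UMIs (counted molecules) and at least 0.2% of its UMIs. C1qa, C1qb and C1qc, which mark microglia, had to stay under 0.3% of UMIs, and Apoe, Glul, Slc1a3 and Rlbp1, which mark glia, under 1%. The 147 cells were 1.56% (exact binomial 95% interval 1.32 to 1.83%) of the 9441 NaIO3 cells kept. A kept cell had 500 or more UMIs from 300 or more genes, of which mitochondrial transcripts made up no more than 15%, and both libraries together held 15014 of them. The measured transcripts chose the cells, so the levels of these genes describe the choice and are no result.

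Sodium iodate (NaIO3) is an oxidant that injures the retinal pigment epithelium, after which photoreceptors degenerate. Mice received NaIO3 intravenously at 20 mg per kg, or the same volume of phosphate-buffered saline (PBS), and retinas were taken at day 7. The retinas of 6 mice per treatment were pooled and digested with papain, and 1 droplet library (10x) was made from each pool. The labels name CD11b beads for the NaIO3 pellets alone, yet call both libraries CD11b-positive microglia; CD11b is a myeloid surface protein and no endothelial marker, so the cells here are not of the labelled cell type. The labels give no strain, age or sex of the mice.

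Endothelial cells of the inner retina form the blood-retina barrier. Tight junctions seal the gaps between them, transport through vesicles is kept low, and membrane transporters carry glucose, amino acids, hormones and lipids into the tissue or pump foreign molecules back into the blood. This state is maintained by norrin and Wnt ligands acting through beta-catenin. The same cells can be activated, when they display adhesion molecules to leukocytes, answer interferons and increase their display of peptides on MHC molecules. MHC class I presents peptides made inside any cell, whereas class II is chiefly a property of professional antigen-presenting cells.

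The NaIO3 library held 9746 barcodes and 75981079 UMIs, and the PBS library 6242 barcodes and 26605477 UMIs. The endothelial cells had a median of 4236 UMIs (863 to 20835) and 938933 UMIs in all, and the other 9294 kept NaIO3 cells a median of 2932 and 74488076 UMIs in all. Of the barcodes, 24 occurred in both libraries, none of them among the 147 cells. Levels are given as CPM, the gene's UMIs summed over a group of cells per 1000000 UMIs of that group, with exact intervals that cover counting error only. With 1 library per treatment there is no replicate, and no test was made. For comparison within the NaIO3 library, 1605 cells were gated on the C1q genes (median 3421 UMIs), 69 on the Müller glia genes Glul, Slc1a3 and Rlbp1 (median 11545 UMIs) and 3022 on rod photoreceptor genes (median 2533.5 UMIs). Rod transcripts are abundant in the retina and spread to other droplets as free RNA. The rod gate also shows a level that a gene of another cell type can reach there without being expressed. It sets no upper limit for the endothelial cells, where microglia and macrophage markers summed to 541 CPM, against 112 CPM in the rod gate.

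Summed together, the 147 cells carried the endothelial programme well beyond the genes that chose them. Of 18 further endothelial markers, 17 were at least 2-fold higher than in the other cells. They include Cdh5, the cadherin of endothelial adherens junctions, with 619.9 CPM in endothelial cells and 1.29 CPM in the other cells. Pecam1, a junctional adhesion protein, had 723 CPM against 9.29 CPM, and the angiopoietin receptor Tek had 391 CPM against 0.792 CPM. The exception was the VEGF receptor Kdr, with 268 CPM against 163 CPM, which reached 1123 CPM in the Müller gate. At least 3 of the 18 markers were detected in 142 of the 147 cells and in 148 of the 9294 other cells, with a median of 12 markers per endothelial cell. Over all genes with at least 20 CPM in either group and 20 summed UMIs (8575 genes), 15.5% were at least 2-fold higher in endothelial cells and 25.4% at least 2-fold lower, with a median log2 ratio of -0.30. Since the cells were chosen by their transcripts, these shares are a background and not a finding. Each count of list members over the other cells below is to be read against this background. The shares also depend on the scaling: under TMM factors 1662 genes were higher and 1620 lower, instead of 1330 and 2180, and the median log2 ratio was 0.0058. Over the C1q gate, 28.0% of 8076 genes were at least 2-fold higher in endothelial cells and 19.6% at least 2-fold lower. Over the Müller gate, 19.6% of 8210 genes were at least 2-fold higher and 19.7% at least 2-fold lower.

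The genes with the highest ratios over the other cells included transcription factors and receptors of blood vessel endothelium. Sox18, a SOX factor of vessel development, had 394 CPM in endothelial cells and 0.389 CPM in the other cells, a ratio of 1012 (95% interval 693 to 1533). Foxf2 and Foxq1, forkhead factors of brain endothelium, had ratios of 868.5 (542 to 1472) and 696 (567 to 861). With rule genes at 10 UMIs and 0.5%, these ratios were 682 (Sox18), 517 (Foxf2) and 403 (Foxq1), each below its interval. The other cells also hold the cells that the C1q and glia limits removed, so the size of such ratios depends on the gate. Tbx1, Rassf9, Scgb3a1, Tie1, Robo4, Sox17, Cyyr1, Palmd, Adgrf5, Mal, Slco1a4, Adgrl4, Srarp, Mecom, She, Mgp and Atp8b1 completed the 20 highest, down to a ratio of 502 for Atp8b1. Each of these 20 genes was detected in between 56 and 130 of the 147 cells, and none exceeded 3 CPM in the C1q, Müller or rod gates.

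Transcripts that mark other cell types were also counted in the 147 cells. Microglia and macrophage markers, the C1q genes of the rule among them, summed to 541 CPM in endothelial cells and 6362 CPM in the other cells (20280 CPM in the C1q gate), and rod markers to 4814 CPM against 24130 CPM (60840 CPM in the rod gate). Mural cell markers went the other way, with 856 CPM against 28.9 CPM. Rgs5, a pericyte gene, was detected in 85 of the 147 cells, and 10 cells had at least 5 of its UMIs. Those 10 cells had 4426 CPM of mural markers, against 349 CPM in the remaining 137, but Rgs5 is 1 of these markers and chose the cells. Of the mural markers other than Rgs5, Abcc9 was at 522 CPM in the 10 cells against 38.9 CPM, Kcnj8 at 188 CPM against 13.4 CPM and Pdgfrb at 223 CPM against 28.0 CPM. Cdh5 was at 539 CPM against 631 CPM and Pecam1 at 890 CPM against 699 CPM. With every cell of 3 or more mural UMIs left out, 94 cells remained, and the ratio of the junction list over the other cells was 9.03 instead of 8.71. Erythrocyte and platelet markers had 488 UMIs, 373 of them in 1 cell.

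The genes of the rule gave a median of 58 UMIs (5 to 394) and 1.35% of UMIs (0.226 to 2.53%). Just inside, 1 cell lay between 0.2 and 0.25%, and 6 cells that met every other limit lay between 0.15 and 0.2%. The C1q limit alone removed 6 further cells, the glia limit alone 16, and both 5.

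Junction genes were high. Of 15 tight and adherens junction genes measured above the minimum, 13 were at least 2-fold higher in endothelial cells than in the other cells. None was 2-fold lower. Of all genes, 15.5% were at least 2-fold higher and 25.4% at least 2-fold lower. The median log2 ratio of the list was 3.13, against -0.30 for all genes. Together the list had 5459 CPM against 627 CPM, a ratio of 8.71 (8.46 to 8.96). Ocln, the tight junction protein occludin, had 184 CPM in endothelial cells, 0.0915 CPM in the C1q gate and 1.28 CPM in both the Müller and the rod gates. Tjp1, the scaffold ZO-1, had 945 CPM, against 133 CPM in the Müller gate and 80.0 CPM in the rod gate. Esam, an adhesion molecule of endothelial junctions, was detected in 123 of the 147 cells at 574 CPM, and Lsr, the tricellular junction protein angulin-1, in 92 cells at 333 CPM. Cytoplasmic partners of cadherins were 3.74-fold (Afdn) to 8.77-fold (Jup) higher, with Ctnnb1, which encodes beta-catenin, at 524 CPM against 135 CPM.

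Cldn12, a further claudin gene, was not set apart, with 17.0 CPM against 20.7 CPM. No UMI of Cldn1, Cldn3 or Cgn was counted in the 147 cells, where 3 counts would be 3.19 CPM, so a level under that cannot be told from 0 for these genes at this depth. Claudin-5, whose gene Cldn5 belongs to the rule, was detected in 130 cells with 2673 CPM.

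**Figure D1:**
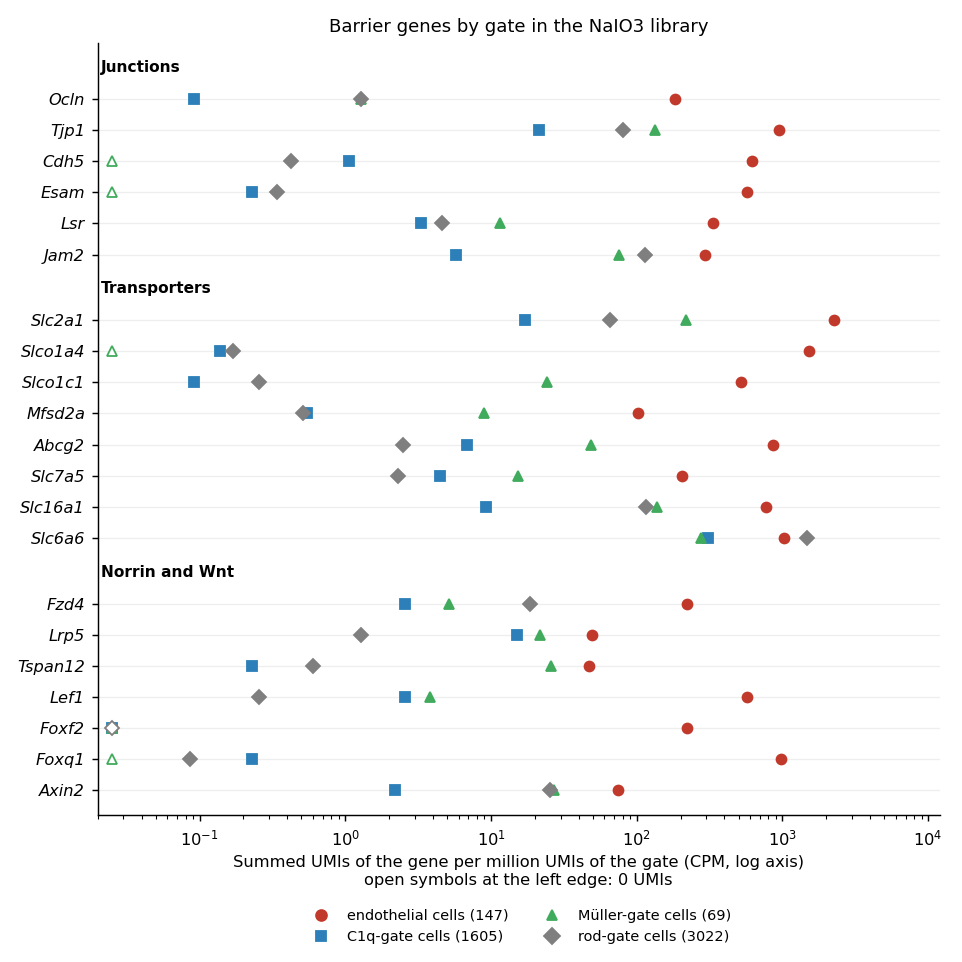
Levels of junction, transporter and norrin or Wnt pathway genes in 4 gates of the NaIO3 library, in CPM on a log axis. Red circles (endothelial cells) lie to the right of the other symbols for every gene drawn except Slc6a6.

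Transporters of the barrier were mostly high. Of 23 genes above the minimum 20 were at least 2-fold higher and none 2-fold lower, where 15.5% and 25.4% of all genes were. The median log2 ratio was 5.12. The list had 10830 CPM in endothelial cells and 1615 CPM in the other cells (ratio 6.70, 6.57 to 6.84). Slc2a1, the glucose transporter GLUT1, had 2273 CPM in endothelial cells, 218 CPM in the Müller gate and 65.1 CPM in the rod gate. After thinning every cell to 1000 UMIs, Slc2a1 was detected in 66.0% (57.6 to 73.7%) of 144 endothelial cells and in 5.48% (4.65 to 6.42%) of 2644 rod-gate cells, whose median depths before thinning were 4257.5 and 2799.5 UMIs. Without thinning, 128 of the 147 cells had a UMI of it.

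Hormone, lipid and drug carriers were found in the same cells. Slco1a4, an organic anion transporter, had 1513 CPM against 2.66 CPM in the other cells, and Slco1c1, which carries thyroxine, 516 CPM against 2.09 CPM. The lysophospholipid transporter Mfsd2a, which brings docosahexaenoic acid into brain and retina and restrains vesicular transport, had 101 CPM against 1.77 CPM and was detected in 47 cells. The efflux pump Abcg2 had 859.5 CPM against 12.8 CPM, and Abcc4, another pump of the ABC family, 204.5 CPM against 2.91 CPM. Carriers of small nutrients showed the same direction: Slc7a5 and Slc3a2, the pair that forms the large neutral amino acid carrier, were 40.7-fold and 4.06-fold higher, the cationic amino acid carrier Slc7a1 30.1-fold and the lactate carrier Slc16a1 11.02-fold. Slc40a1, the iron exporter ferroportin, was 26.8-fold higher (22.1 to 32.4), whereas the transferrin receptor Tfrc was 1.503-fold higher (1.20 to 1.85). The taurine carrier Slc6a6 had 1030 CPM in endothelial cells and 1479 CPM in the rod gate, and the glutamine carrier Slc38a3 had 167 CPM in endothelial cells and 276 CPM in the rod gate, so both were lower in the vessel cells than in that gate.

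Genes of the norrin and Wnt pathway stood beside them. Of 18 measured above the minimum 17 were at least 2-fold higher, where 15.5% of all genes were. The median log2 ratio was 4.10, and the list had 3531 CPM against 301 CPM (ratio 11.7, 11.3 to 12.2). Among receptors, the norrin receptor Fzd4 had 221.5 CPM in endothelial cells against 11.2 CPM in the other cells, its co-receptor Lrp5 49.0 CPM against 8.20 CPM and its partner Tspan12 46.9 CPM against 3.17 CPM. Adgra2 and Reck, which let Wnt7 ligands act on brain endothelium, were 9.51-fold and 25.2-fold higher. The nuclear effector Lef1 had 567 CPM against 2.59 CPM, and Foxq1 was detected in 129 of the 147 cells. Pathway targets that feed back on it were also higher, Axin2 at 74.5 CPM against 17.6 CPM and Nkd1 at 50.1 CPM against 6.31 CPM. The receptor Lrp6 was the exception, with 79.9 CPM against 63.4 CPM.

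Among genes of vesicle traffic, coat genes were high and the fenestration gene was near 0. The caveola coat genes Cavin1, Cavin2 and Cavin3 were 49.4-fold, 482-fold and 21.8-fold higher than in the other cells. Cav1, the structural protein of caveolae, had 129 CPM in endothelial cells against 67.9 CPM in the other cells and 462 CPM in the Müller gate. Plvap, the diaphragm protein of fenestrated and immature vessels that the barrier normally lacks, had 1 UMI in 1 of the 147 cells (1.07 CPM), against 4.98 CPM in the other cells. Over the list, 6 of 8 genes above the minimum were at least 2-fold higher and none 2-fold lower, where 15.5% and 25.4% of all genes were. The list had 1698 CPM against 282 CPM.

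Receptors that shape vessels were mostly high. Of the VEGF, angiopoietin and Notch genes 11 of 14 were at least 2-fold higher and none 2-fold lower, where 15.5% and 25.4% of all genes were. Tie1 was at 175 CPM against 0.242 CPM, the VEGF-C receptor Flt4 at 91.6 CPM against 1.52 CPM and Notch4 at 80.9 CPM against 1.54 CPM. This list summed to 2097 CPM in endothelial cells and 2066 CPM in the Müller gate, where Kdr was higher. The Notch target Hes1 had 229 CPM in endothelial cells and 600.3 CPM in the Müller gate. Of the BMP and TGF-beta genes 10 of 15 were at least 2-fold higher and 2, Tgfbr1 and Tgfb2, 2-fold lower, beside the same shares over all genes. The co-receptor Eng had 383 CPM against 3.80 CPM, and the targets Id1 and Id3 had 638 CPM against 12.5 CPM and 829.7 CPM against 22.3 CPM. Basement membrane and matrix genes were higher without exception among the 15 above the minimum (ratio of the list 15.4, 15.0 to 15.7), with Col4a1 at 608 CPM against 17.0 CPM, fibronectin (Fn1) at 1700 CPM against 82.4 CPM and Sparcl1 at 2341 CPM against 8.08 CPM.

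**Figure D2:**
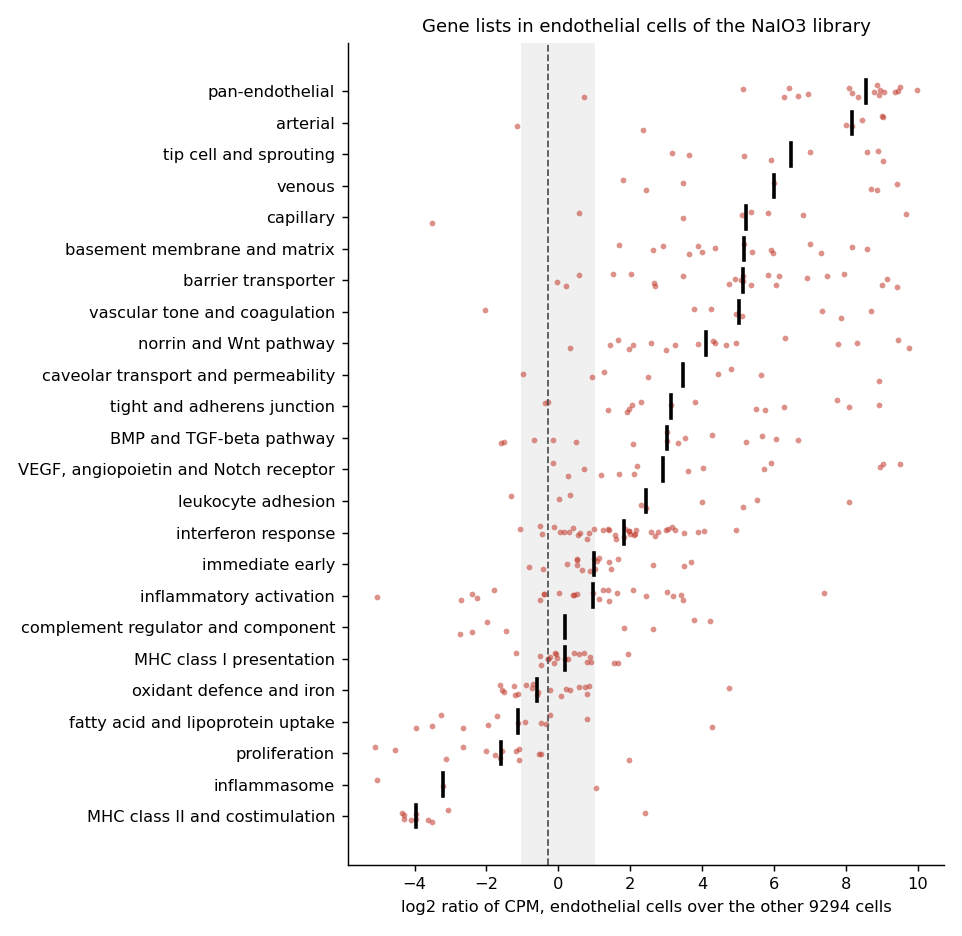
Log2 ratio of CPM in the 147 endothelial cells over the other 9294 cells for the list members with at least 20 CPM in either group, 1 red point per gene, with the median of each list as a black bar. The grey band marks ratios under 2-fold and the dashed line the median of all 8575 genes (-0.30); lists of vessel identity and barrier lie far to the right, inflammatory activation and MHC class I near the band, and MHC class II to the left.

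Genes of arterial, capillary and venous endothelium were all represented. The counts of members below stand beside 15.5% of all genes at least 2-fold higher and 25.4% at least 2-fold lower. Among arterial genes 6 of 7 were at least 2-fold higher, among them Cxcl12, a chemokine of arterial and capillary endothelium (964 CPM against 3.80 CPM), the kinase Bmx (135 CPM against 0.389 CPM) and the matrix inhibitor of calcification Mgp (2480 CPM against 4.89 CPM). Alpl was lower (41.5 CPM against 92.9 CPM), and Gja5 had no UMI. Capillary genes included Spock2 (3263 CPM against 29.0 CPM), and 6 of 8 were at least 2-fold higher; the exceptions were Tfrc and the fatty acid receptor Cd36, which had 3 UMIs (3.19 CPM) against 36.3 CPM. All 7 venous genes above the minimum were higher, with Tmem252 at 619 CPM against 1.34 CPM, von Willebrand factor (Vwf) at 788 CPM against 1.89 CPM and the venous fate factor Nr2f2 at 108 CPM against 31.1 CPM. Among tip cell and sprouting genes all 8 above the minimum were higher, such as Adm (88.4 CPM against 0.188 CPM) and Dll4 (62.8 CPM against 0.121 CPM). The tip cell genes Esm1, Apln and Kcne3 had no UMI in the 147 cells, and Angpt2 had 12 UMIs.

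Cxcl12 and Vcam1, an adhesion molecule carried by venous endothelium, were seldom both high in 1 cell. At a limit of 0.05% of UMIs, chosen after these values were seen, 60 cells were high in Cxcl12 and 36 in Vcam1, 2 in both and 53 in neither. Of these, 2 Cxcl12 cells and 4 Vcam1 cells passed the limit on 1 UMI of the gene. At 3 or more UMIs in place of that limit, 58 cells held Cxcl12, 24 Vcam1 and 4 both. The 60 Cxcl12 cells had 47.8 CPM of Vcam1 against 474 CPM in the other 87 cells, 88.2 CPM of the Notch ligand Dll4 against 27.9 CPM, and 728 CPM of Slco1c1 against 226 CPM. The 36 Vcam1 cells had 239 CPM of Nr2f2 against 84.9 CPM in the other 111 cells, and 7.23 CPM of Dll4 against 72.4 CPM. GLUT1 transcripts differed less, with 1982 CPM of Slc2a1 in Vcam1 cells against 2323 CPM in the others.

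Depth differed along this division. The median was 8827 UMIs in Cxcl12 cells against 2854 in the other cells, and 2503 UMIs in Vcam1 cells against 5439 in the other cells. Of the 73 cells above the median depth, 49 were high in Cxcl12, 6 in Vcam1 and 1 in both. Microglia markers were at 1396 CPM in Vcam1 cells against 393 CPM, rod markers at 7271 CPM against 4390 CPM and mural markers at 1787 CPM against 696 CPM. The part of depth and of these other transcripts in the division was not tested.

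**Figure D3:**
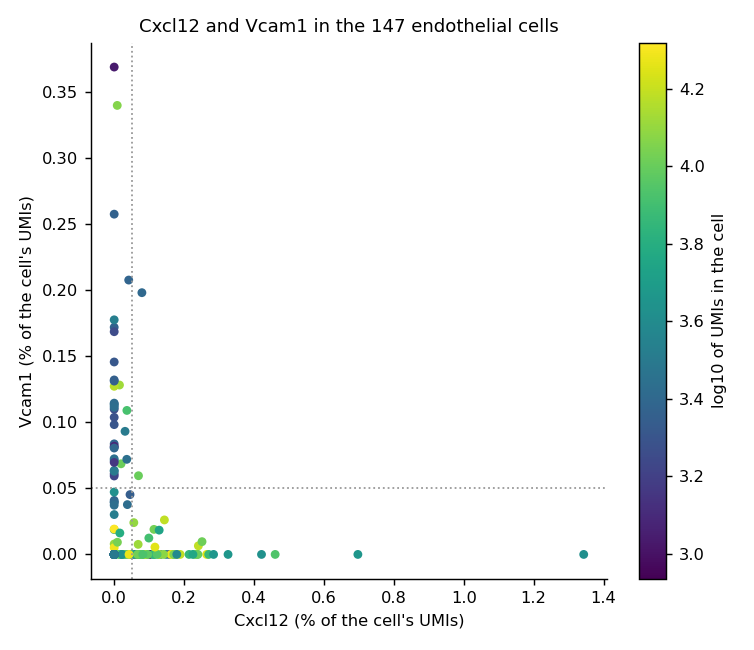
Cxcl12 and Vcam1 as a percentage of the UMIs of each of the 147 endothelial cells, coloured by the log10 of the cell's UMIs, with dotted lines at 0.05%. Points spread along both axes and 2 cells lie above both limits.

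Activation genes gave a mixed picture. Among leukocyte adhesion genes 6 of 9 above the minimum were at least 2-fold higher and 1 (Podxl2) was 2-fold lower, where 15.5% and 25.4% of all genes were. Their median log2 ratio was 2.45, against -0.30 for all genes. The list had 3013 CPM in endothelial cells against 634 CPM in the other cells (ratio 4.75, 4.57 to 4.93). The higher members were genes that resting vessels carry, such as Podxl (919 CPM against 57.4 CPM), Cd34 (447 CPM against 12.7 CPM) and Icam2 (110 CPM against 2.40 CPM), together with Vcam1 (227 CPM against 41.6 CPM). After thinning, Vcam1 was detected in 22.9% (16.3 to 30.7%) of endothelial cells and in 0.151% (0.0412 to 0.387%) of rod-gate cells; without thinning it was detected in 59 of the 147 cells. The inducible adhesion molecule Icam1 had 33 UMIs in 13 cells, 29 of them in the 36 Vcam1 cells and 18 in 1 cell (35.1 CPM against 28.1 CPM in the other cells and 78.1 CPM in the C1q gate). E-selectin (Sele) had 3 UMIs in 3 cells, and no UMI of P-selectin (Selp), Madcam1 or Glycam1 was counted.

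Inflammatory activation genes divided between higher and lower. Of 25 above the minimum 12 were at least 2-fold higher and 5 at least 2-fold lower, where the shares over all genes were 15.5% and 25.4%, and the list had 2459 CPM in endothelial cells and 2159 CPM in the other cells (ratio 1.14, 1.09 to 1.19). Osmr, a receptor chain for oncostatin M, had 190 CPM against 17.9 CPM, the interleukin-1 receptor Il1r1 63.9 CPM against 5.83 CPM, and the TNF receptors Tnfrsf1a and Tnfrsf1b were 2.36-fold and 2.68-fold higher. Nfkbia, the inhibitor and target of NF-kB, had 418 CPM against 76.8 CPM, and the glycoprotein Lrg1, which acts on TGF-beta signalling in vessels, 149 CPM against 0.886 CPM. Among chemokines and growth factors, Cx3cl1 had 35.1 CPM against 4.35 CPM and Csf1, which sustains microglia, 44.7 CPM against 14.5 CPM. Of the 5 lower members, the monocyte chemokine Ccl2 had 28.8 CPM in endothelial cells, 189.6 CPM in the other cells and 606 CPM in the C1q gate, and Ccl5 had 3.19 CPM against 105 CPM. Lcn2 and Serpina3n, 2 acute-phase genes of reactive glia, had 98.0 CPM against 521 CPM and 41.5 CPM against 199 CPM, with 984 CPM and 829 CPM in the Müller gate. Tnfaip3, which restrains NF-kB, had 17.0 CPM against 58.4 CPM. Neither Il6 (0 UMIs) nor Cxcl9 (2 UMIs) was measurable at this depth. Averaging the CPM of single cells in place of summing gave the list a ratio of 1.91, and leaving out the 2 cells described below gave 1.02; Ccl2 reversed to 1.73-fold higher when the C1q-gate cells were left out of the other cells.

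Immediate early genes, many of which also respond to tissue dissociation, were at least 2-fold higher for 9 of 18 members and 2-fold lower for none. Over all genes the shares were 15.5% and 25.4%. Klf2 and Klf4, transcription factors induced by blood flow, were 11.3-fold and 13.0-fold higher, and Ier3 6.19-fold. Fos had 1959 CPM against 1247 CPM and Egr1 578 CPM against 784 CPM. Genes of vascular tone and coagulation were at least 2-fold higher for 7 of 8 members and 2-fold lower for 1, beside the same shares over all genes. Endothelin-1 (Edn1) was at 333 CPM against 2.08 CPM, thrombomodulin (Thbd) at 311 CPM against 1.34 CPM and the nitric oxide synthase Nos3 at 143 CPM against 4.11 CPM. Of the 313 Edn1 UMIs, 93 were in 1 cell. Ptgs1 was lower, with 10.7 CPM against 44.0 CPM, and its direction reversed (4.71-fold higher) without the C1q-gate cells among the other cells.

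All 147 endothelial cells had a UMI of at least 1 of the 22 genes of the MHC class I presentation list, which also holds chaperone and proteasome genes. The summed level of the list lay between that of the C1q gate and those of the Müller and rod gates. Of 21 genes above the minimum 3 were at least 2-fold higher than in the other cells, 1 was 2-fold lower and 17 were neither, with a median log2 ratio of 0.17 against -0.30 for all genes. The count of higher members is near the background, where 15.5% of all genes were higher, and is no result about the list. The list had 6549 CPM in endothelial cells and 5101 CPM in the other cells (ratio 1.28, 1.25 to 1.32), 10590 CPM in the C1q gate, 3350 CPM in the Müller gate and 1701 CPM in the rod gate. The heavy chain H2-K1 had 1280 CPM in endothelial cells, 1258 CPM in the C1q gate, 561 CPM in the Müller gate and 275 CPM in the rod gate. After thinning it was detected in 76.4% (68.6 to 83.1%) of endothelial cells, 56.8% (54.1 to 59.4%) of C1q-gate cells and 19.8% (18.3 to 21.4%) of rod-gate cells; without thinning, 141 of the 147 endothelial cells had a UMI. The heavy chain H2-D1 had 1215 CPM in endothelial cells against 1428 CPM in the C1q gate, and the light chain B2m 1738 CPM against 3712 CPM.

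The 3 higher members were H2-Q4, H2-T22 and H2-T23, non-classical heavy chains, with 262 CPM against 83.8 CPM, 118 CPM against 30.7 CPM and 299 CPM against 103 CPM in the other cells. Reads of H2-K1, H2-D1 and the H2-Q and H2-T genes can match more than 1 of these similar genes, so the division between them is uncertain. Genes of peptide supply lay on both sides. The peptide transporter chain Tap2 had 45.8 CPM against 30.7 CPM and the trimming peptidase Erap1 40.5 CPM against 29.9 CPM, both under 2-fold. The immunoproteasome subunit Psmb8 had 152 CPM against 184 CPM, the other transporter chain Tap1 47.9 CPM against 50.3 CPM, and the chaperone Calr 191 CPM against 432.5 CPM. The ratio of the list was 2.32 when the C1q-gate cells were left out of the other cells, and 1.69 with the mean of single cells.

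Class II genes were low, and 53 of the 63 Cd74 UMIs lay in cells that also held a C1q UMI. Of 10 genes of the class II and costimulation list above the minimum 9 were at least 2-fold lower and 1 at least 2-fold higher, where 25.4% and 15.5% of all genes were. The list had 361 CPM in endothelial cells, 4852 CPM in the other cells and 12640 CPM in the C1q gate. It had 57.6 CPM in the Müller gate and 57.2 CPM in the rod gate. Endothelial cells were thus above both of these gates (6.27-fold over the Müller gate, 4.58 to 8.76). Cd74, the invariant chain, had 63 UMIs in 34 cells (67.1 CPM), against 1307 CPM in the other cells, 3206 CPM in the C1q gate, 11.5 CPM in the Müller gate and 13.7 CPM in the rod gate. After thinning, it was detected in 12.5% (7.58 to 19.0%) of endothelial cells, in 53.3% (50.7 to 56.0%) of C1q-gate cells and in 1.51% (1.08 to 2.05%) of rod-gate cells. The class II heavy chains H2-Aa, H2-Ab1 and H2-Eb1 had 53.3, 46.9 and 52.2 CPM in endothelial cells and 1522, 1693 and 1369 CPM in the C1q gate. Ciita, the regulator of class II transcription, had 1 UMI, and no UMI of the costimulatory gene Cd86 was counted, against 80.1 CPM in the C1q gate.

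Class II transcripts were also set against C1q transcripts in the same cells. Cd74, H2-Aa, H2-Ab1 and H2-Eb1 together had 1.06 UMIs per C1q UMI (0.869 to 1.30) in endothelial cells, 0.847 (0.841 to 0.852) in the C1q gate and 0.696 (0.609 to 0.794) in the rod gate. Singly, Cd74 had 0.325 (0.240 to 0.434) UMIs per C1q UMI in endothelial cells and 0.3485 in the C1q gate, and H2-Ab1 0.227 (0.160 to 0.316) and 0.184. For H2-Aa the values were 0.258 (0.185 to 0.353) in endothelial cells and 0.165 in the C1q gate, and for H2-Eb1 0.253 (0.181 to 0.347) and 0.149. The microglial gene Tyrobp had 0.320 (0.236 to 0.427) in endothelial cells and 0.245 in the C1q gate, and Ctss 0.330 (0.245 to 0.440) and 0.463. The rule caps C1q in endothelial cells and the C1q gate requires it, so the choice of cells bears on all these ratios. They cannot show whether endothelial cells express class II genes or not. The C1q genes belong to the rule, so a division of the cells by them is a description. In the 90 endothelial cells with no C1q UMI, Cd74 was at 14.9 CPM (7.16 to 27.5), against 197 CPM in the 57 cells with one; the median depth was 5815.5 UMIs in the 90 cells and 2815 UMIs in the 57. H2-Aa was at 13.4 CPM (6.15 to 25.5) in those 90 cells, against 152 CPM in the 57. H2-K1 was at 1193 CPM against 1497 CPM, H2-D1 at 1236 CPM against 1163 CPM and B2m at 1756 CPM against 1694 CPM in the same cells. The 73 deeper cells had 184 CPM of the class II list against 1041 CPM in the 74 shallower ones, and 272.5 CPM of microglia markers against 1571 CPM. The deeper cells also had more of the barrier: 5925 CPM of junction genes against 3673 CPM, 11860 CPM of transporters against 6863 CPM and 2588 CPM of Slc2a1 against 1061 CPM, with rod markers at 2806 CPM against 12520 CPM. The class II ratio over the other cells was 0.0744 (0.0667 to 0.0828) with all 147 cells and 0.0286 with the 90, and it was 0.217 with the mean of single cells and 0.224 against the other cells without the C1q gate. The rule limits C1q, so the level of microglial genes is in part fixed by the choice of cells. Whether free or microglial RNA accounts for the class II transcripts was not tested.

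Cd274, which encodes the inhibitory ligand PD-L1, was the only member of that list that was higher, at 52.2 CPM against 9.80 CPM in the other cells, 13.8 CPM in the C1q gate, 8.96 CPM in the Müller gate and 3.24 CPM in the rod gate. It had 49 UMIs in 20 cells, 25 of them in the 2 cells described below. Without those 2 cells the ratio was 2.66 (1.69 to 3.98), at 26.0 CPM.

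**Figure D4:**
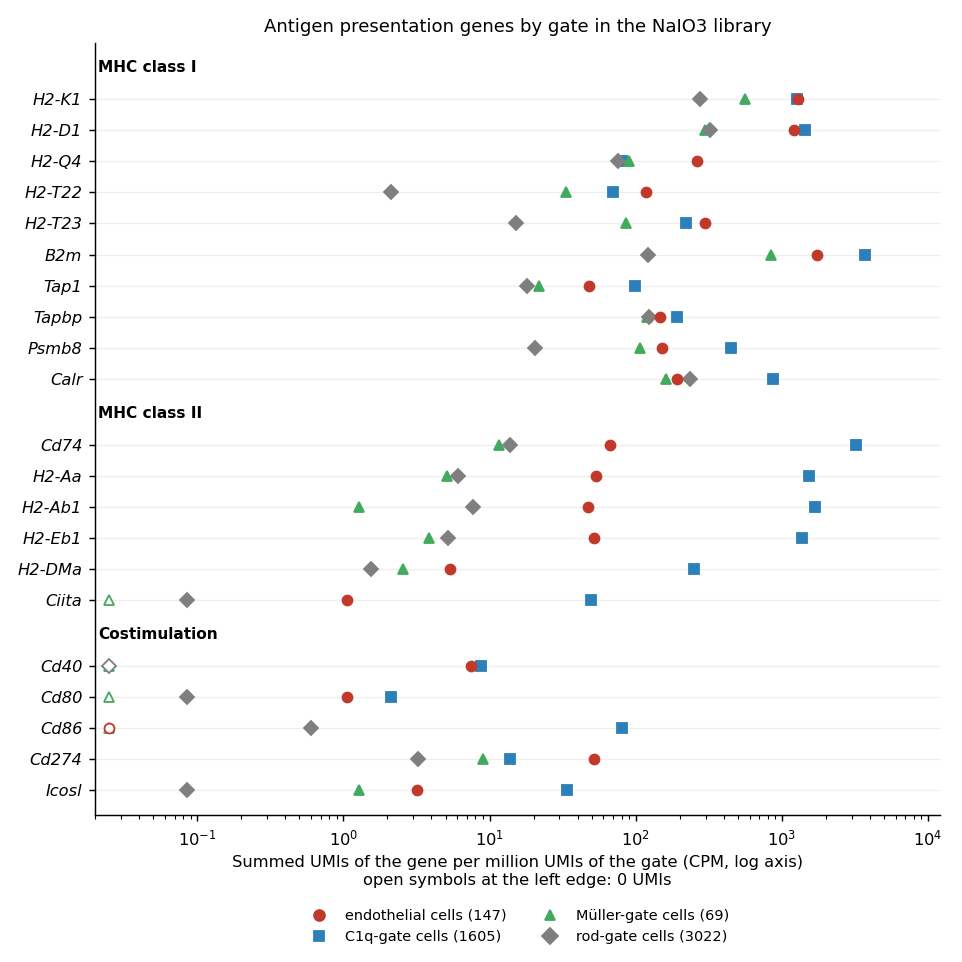
Levels of MHC class I, MHC class II and costimulation genes in 4 gates of the NaIO3 library, in CPM on a log axis. Endothelial cells (red circles) lie near the C1q gate (blue squares) for H2-K1 and H2-D1 and more than 20-fold below it for Cd74, H2-Aa, H2-Ab1 and H2-Eb1.

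Interferon response genes were higher in endothelial cells than in any of the other gates taken as a list. Of 37 genes above the minimum 24 were at least 2-fold higher and 1 was 2-fold lower, where 15.5% and 25.4% of all genes were. The lower gene was the receptor chain Ifngr2 (1.18-fold higher without the C1q-gate cells among the other cells). The median log2 ratio was 1.83 against -0.30 for all genes. The list had 11900 CPM in endothelial cells, 3646 CPM in the other cells (ratio 3.26, 3.202 to 3.33), 7769 CPM in the C1q gate, 3040 CPM in the Müller gate and 792 CPM in the rod gate. Genes for antiviral membrane proteins were broadly present: Ifitm3 had 2588 CPM against 381 CPM in the other cells, Ifitm2 573 CPM against 60.0 CPM, and Ly6e 2000 CPM against 516 CPM. After thinning, Ifitm3 was detected in 81.3% (73.9 to 87.3%) of endothelial cells and in 1.74% (1.28 to 2.31%) of rod-gate cells, and without thinning in 142 of the 147 endothelial cells. The guanylate-binding GTPases, which act against intracellular pathogens, were among the highest ratios, with Gbp5 30.9-fold (26.3 to 36.2), Gbp4 14.8-fold and the related GTPase Iigp1 16.7-fold. The type I receptor chains Ifnar1 and Ifnar2 were 3.91-fold and 4.01-fold higher, whereas Ifngr1, of the type II receptor, was at 0.733 of the level in the other cells. The 12 genes that were neither include Bst2, which encodes the antiviral protein tetherin, with 258 CPM against 367 CPM, and 892 CPM in the C1q gate.

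A pair of cells stood far from the rest. The interferon list took a median of 0.837% of a cell's UMIs (lowest 0.0319%), the third highest cell had 2.12%, and the 2 highest had 6.91% and 9.69%. These cells had 4095 and 12633 UMIs and no UMI of the microglia markers. The 18 endothelial markers took 0.488% and 0.340% of their UMIs, against a median of 0.635% over all 147 cells, and Cldn5 had 1 and 3 UMIs. They held 224 of the 227 UMIs of Cxcl10, a chemokine that draws T cells, 285 of 528 UMIs of Rsad2, which encodes the antiviral enzyme viperin, and 84 of 122 UMIs of Ifit2. Barrier transporters took 0.318% and 0.364% of their UMIs, against a median of 0.893% over all 147 cells. Without the 2 cells Cxcl10, which belongs to the inflammatory activation list, was at 3.25 CPM, against 57.1 CPM in the other cells, so its direction reversed. Of the interferon list 23 of 36 genes were then at least 2-fold higher and 1 was at least 2-fold lower. Of all 8548 genes above the minimum without the 2 cells, 1320 were higher and 2181 lower. The median log2 ratio of the list was 1.52 and its ratio 2.88 (2.82 to 2.93). The antiviral GTPase gene Mx1 had 19 UMIs, 16 of them in the 2 cells; without them it was at 0.180 of the level in the other cells, instead of 1.12, and under the minimum. Usp18, which restrains interferon signalling, was at 0.891 instead of 1.51, and Ifit2 at 1.41 instead of 4.45. Gbp5 was 22.1-fold higher (18.3 to 26.4), Iigp1 11.98-fold, Gbp4 10.9-fold, Ifitm2 9.62-fold and Rsad2 5.24-fold.

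**Figure D5:**
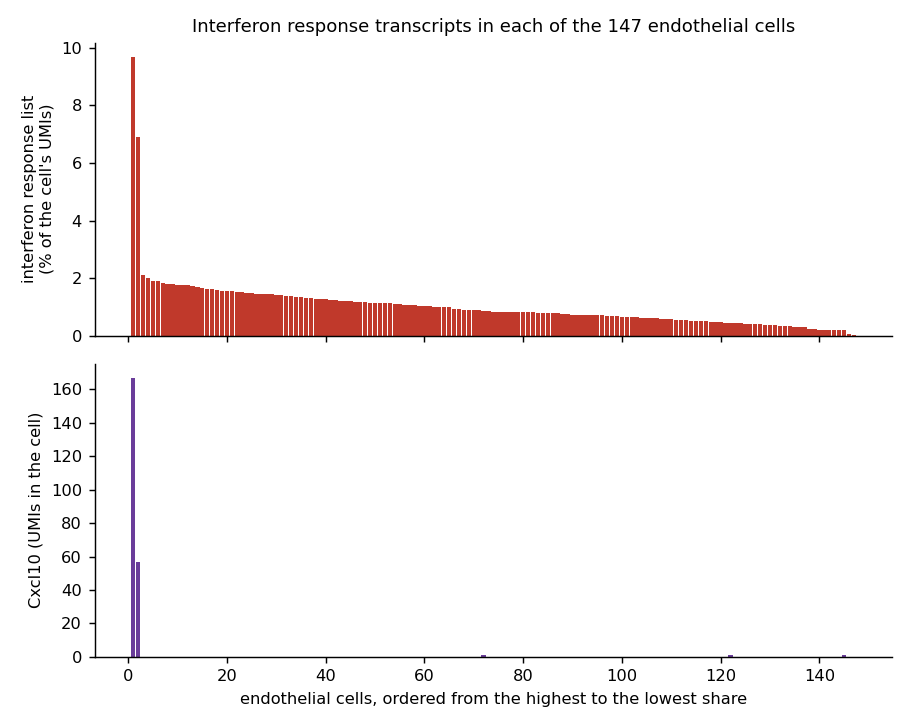
Share of each endothelial cell's UMIs taken by the interferon response list (top) and the number of Cxcl10 UMIs in the same cell (bottom), with the 147 cells ordered from the highest to the lowest share. The first 2 cells have 9.69% and 6.91% of UMIs in the list and 167 and 57 Cxcl10 UMIs; the third has 2.12% and none.

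Promoters of 4 genes abundant in these cells are given to show a sequence element that they hold. The interferon-stimulated response element, a site bound by IRF factors, was searched on both strands as GAAA, any 2 bases and a further GAAA, from 250 bases before to 50 bases after the start of each gene in RefSeq (GRCm38.p6). It was found in 16 of 29 genes of the interferon list with a promoter in that table (55.2%), in 1079 of all 27025 genes (3.99%) and in 0 of 10 endothelial markers. Neither of the 2 windows of Ifit2 held it. The match describes letters and shows no binding. The windows of 4 genes follow, 5′ to 3′ on the strand of the gene, with the element in capitals. Rsad2 is at chr12:26456403-26456702 (minus strand), Cxcl10 at chr5:92348840-92349139 (minus strand), Ifit1 at chr19:34640639-34640938 (plus strand) and Gbp5 at chr3:142496684-142496983 (plus strand).
Rsad2: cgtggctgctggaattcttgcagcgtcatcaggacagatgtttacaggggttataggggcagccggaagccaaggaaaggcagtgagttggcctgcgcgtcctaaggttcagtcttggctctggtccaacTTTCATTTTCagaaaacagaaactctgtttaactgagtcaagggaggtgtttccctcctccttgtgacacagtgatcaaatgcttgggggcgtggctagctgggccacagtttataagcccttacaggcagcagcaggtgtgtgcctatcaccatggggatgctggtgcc
Cxcl10: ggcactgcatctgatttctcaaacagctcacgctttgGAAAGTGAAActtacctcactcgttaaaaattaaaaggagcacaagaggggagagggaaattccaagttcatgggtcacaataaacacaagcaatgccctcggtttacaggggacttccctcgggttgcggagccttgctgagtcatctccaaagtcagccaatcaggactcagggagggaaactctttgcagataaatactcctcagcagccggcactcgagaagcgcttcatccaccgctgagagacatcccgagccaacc
Ifit1: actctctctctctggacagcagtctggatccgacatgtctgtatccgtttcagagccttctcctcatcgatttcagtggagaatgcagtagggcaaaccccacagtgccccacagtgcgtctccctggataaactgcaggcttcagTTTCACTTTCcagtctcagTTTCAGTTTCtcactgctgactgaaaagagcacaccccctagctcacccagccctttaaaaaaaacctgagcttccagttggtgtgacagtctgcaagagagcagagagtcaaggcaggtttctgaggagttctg
Gbp5: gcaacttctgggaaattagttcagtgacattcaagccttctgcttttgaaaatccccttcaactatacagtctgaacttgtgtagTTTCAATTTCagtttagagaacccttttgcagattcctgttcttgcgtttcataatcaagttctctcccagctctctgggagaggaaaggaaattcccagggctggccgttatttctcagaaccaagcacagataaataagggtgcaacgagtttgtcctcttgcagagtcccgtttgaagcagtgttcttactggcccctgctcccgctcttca
The element starts 120 bases before the gene start in Rsad2, 213 in Cxcl10 and 165 in Gbp5. Ifit1 has 2 elements, 104 and 85 bases before the start. Ifit1 was detected in 99 of the endothelial cells, with 113 of its 500 UMIs in the 2 cells above. Gbp5 was detected in 70 cells, with 65 of its 218 UMIs in those 2, Rsad2 in 69 cells and Cxcl10 in 5.

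In the PBS library the same rule found 3 of 5573 kept cells (0.0538%, 0.0111 to 0.157%), with 2176, 5200 and 26552 UMIs, and 1 of them held 126 of the 130 mural marker UMIs. Whether the PBS pellets were selected with beads is not settled by the labels, so the shares of cells in the 2 libraries cannot be compared. The intervals here cover the counting of UMIs and not the choice of 3 cells. Barrier transporters summed to 10830 CPM in the 147 NaIO3 cells and 9962 CPM in the 3 PBS cells (ratio 1.09, 0.975 to 1.22), and junction genes to 5459 CPM and 5689 CPM (0.960, 0.831 to 1.11). Interferon response genes summed to 11900 CPM in NaIO3 cells and 10520 CPM in PBS cells (1.13, 1.02 to 1.26), and inflammatory activation genes to 2459 CPM and 2682 CPM (0.917, 0.744 to 1.14).

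Some values lay further apart between these NaIO3 and PBS cells. B2m was at 1738 CPM in NaIO3 cells and 501 CPM in PBS cells (ratio 3.47, 2.16 to 5.97) and H2-K1 at 1280 CPM and 619 CPM (2.07, 1.35 to 3.35). H2-D1 lay closer, at 1215 CPM and 914 CPM (1.33, 0.932 to 1.97). The whole MHC class I list was at 6549 CPM in NaIO3 cells and 4893 CPM in PBS cells (1.34, 1.15 to 1.57). Slc2a1 was at 2273 CPM and 1002 CPM (2.27, 1.62 to 3.28), whereas Slco1a4 was at 1513 CPM and 1857 CPM (0.815, 0.633 to 1.07). Immediate early genes summed to 11830 CPM in NaIO3 cells and 3773 CPM in PBS cells (3.14, 2.63 to 3.76), and Id1 was at 638 CPM and 1916 CPM (0.333, 0.258 to 0.437). Mural markers were at 856 CPM in NaIO3 cells and 3832 CPM in PBS cells, rod markers at 4814 CPM and 560 CPM, and microglia markers at 541 CPM and 29.5 CPM. With 3 cells of 1 library, treatment, vessel type and the single cell cannot be told apart in any of these values.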

How the data were processed

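Single-cell RNA was measured in 2 droplet (10x) libraries of pooled mouse retinas, 1 from NaIO3 and 1 from PBS mice. The deposited values are UMI counts per gene and barcode, made with Cell Ranger 3.0.2 per the file headers, on mm10 per the submitters' processing notes. Cells, gene lists and comparisons were chosen with earlier results of these data known. UMIs were summed over the cells of a gate and given as CPM, with exact Poisson intervals. Ratios carry exact conditional (Clopper-Pearson) 95% intervals, and all intervals cover counting error only, since a library is 1 sample. A gene was tested against the fold limit when it had 20 CPM in either group and 20 summed UMIs, and called past 2-fold. A gene at 0 was set to 3 counts in ratios. Shares of cells were compared after thinning to 1000 UMIs (144 of 147 endothelial cells deep enough). The text names the genes of the rule, of each list up to 8 members with the highest endothelial CPM and those that go against the list, and the 20 highest ratios over the other cells among genes with 100 CPM and 50 UMIs; members named beyond these for their role were chosen after their values were seen. Of 31053 gene IDs 30934 matched GENCODE M21, and 71 rows repeat a symbol. Scrublet marked 180 of 9441 NaIO3 cells (1.91%), 2 of them in the endothelial gate, and none was removed. Promoters are from RefSeq. Some list members are counted but not reported here by name. Python 3.11.15, numpy 2.4.6, scipy 1.17.1, pandas 2.3.3, scanpy 1.11.5, matplotlib 3.10.9 and, for TMM factors alone, R 4.3.3 with edgeR 4.0.16 were used. The ratio and its interval were tested on simulated data.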

Additional observations from a re-analysis of the deposited data

How the results depend on the processing

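No paired analysis was possible because each treatment has 1 library. Of 247 named genes past 2-fold, 205 stayed past it in the same direction in all 12 alternatives run on them, and 238 kept their direction. Without a filter on low counts 2491 genes were higher and 4033 lower; at 4-fold 761 and 895 were. With rule genes at 10 UMIs and 0.5%, the ratios over the other cells were 9.435 for junctions, 7.256 for transporters and 0.038 for MHC class II. At 5% mitochondrial UMIs 95 cells remained, with junctions at 9.17, transporters 6.95, inflammatory activation 1.188 and MHC class I 1.242. With C1q under 0.1% junctions were at 9.051, transporters 6.967 and class II 0.05322. Without cells of 3 mural UMIs 94 cells remained, with junctions at 9.026, inflammatory activation 1.206, class I 1.321 and class II 0.05338. Under TMM scaling junctions were at 10.49, transporters 8.078, inflammatory activation 1.373, class I 1.547 and class II 0.08967. With the mean of per-cell CPM junctions were at 7.86, transporters 5.639, inflammatory activation 1.909, class I 1.687, class II 0.2167 and Mcm5 1.348, a reversal. With the C1q gate left out of the other cells junctions were at 7.702, transporters 5.393, class I 2.321 and class II 0.2235, and these genes reversed: Ccl2 1.725, Ptgs1 4.71, Ifngr2 1.182, Ftl1 1.196, Lpl 1.698, Msr1 1.205, Cdk1 1.5 and Mcm5 1.215.

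The following alternatives were chosen after seeing the data. Without the 2 cells with most interferon transcripts, inflammatory activation was at 1.016, class I at 1.248 and Cxcl10 reversed to 0.05696. The 90 cells without a C1q UMI had junctions at 9.444, transporters 7.263, inflammatory activation 1.197 and class II 0.02862. The 73 deeper cells had junctions at 9.447, transporters 7.343 and class II 0.03791; those lists were at 5925 CPM (junctions) and 11860 CPM (transporters) in the 73 cells, and at 3673 CPM and 6863 CPM in the 74 shallower ones. Apart from the reversals that follow by construction from leaving out those cells, the cause was not tested. With 147 cells of 1 library, a gene with no UMI may lie anywhere up to 3.19 CPM (3 counts), and no interval covers variation between animals.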

Other observations

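Complement genes divided between higher and lower in the endothelial cells relative to the other NaIO3 cells. Cd59a, which blocks the membrane attack complex, had 632 CPM in endothelial cells and 102 CPM in the other cells, and Cr1l, the rodent regulator Crry, 133 CPM against 37.5 CPM. Clu was lower, with 462 CPM against 1823 CPM, and C2 had no UMI. Of the 8 complement genes above the minimum 4 were at least 2-fold higher and 4 at least 2-fold lower, where 15.5% and 25.4% of all genes were.

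Oxidant defence, lipid uptake and proliferation genes were mostly not higher. Of 20 oxidant defence and iron genes 1, Slc40a1, was at least 2-fold higher and 6 were at least 2-fold lower, where 15.5% and 25.4% of all genes were, so the count of lower members is near the background. They include the lipid peroxide reductase Gpx4 (539 CPM against 1163 CPM), the metallothionein Mt1 (602 CPM against 1846 CPM) and the ferritin light chain Ftl1 (763 CPM against 1802 CPM, and 4604 CPM in the C1q gate). Without the C1q-gate cells among the other cells Ftl1 reversed to 1.196-fold higher, as did 4 other genes counted as lower here, the lipid uptake genes Lpl (1.698) and Msr1 (1.205) and the proliferation genes Cdk1 (1.5) and Mcm5 (1.215). Of 13 fatty acid and lipoprotein uptake genes 7 were at least 2-fold lower, such as Fabp5 (13.9 CPM against 133 CPM). Of 14 proliferation genes 11 were at least 2-fold lower, with Mki67 at 3 UMIs (3.19 CPM against 110 CPM), and 1, the cell cycle inhibitor Cdkn1a, was at least 2-fold higher, with 414 CPM against 107 CPM. Summed, the proliferation list had 1572 CPM in endothelial cells and 5856 CPM in the C1q gate. It was not lower than in the rod gate (1521 CPM) or the Müller gate (1078 CPM).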
